A study of Bombyx mori with 4 samples.

Results

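The genes described here encode the cytoskeleton of the silkworm testis and its muscle and motor proteins. They were the probes whose description in the study's homology table holds a whole word such as actin, tubulin, myosin, tropomyosin, troponin, dynein, kinesin or spectrin, and this rule found 38 of the 34631 transcript sequence IDs on the array. The rule was applied to the 1999 table rows, covering 1042 IDs, that were used here, so the list may be incomplete. The 38 IDs have 72 of the 43803 probes and carry 29 gene symbols. A symbol is that of the closest human homolog and does not name the silkworm gene itself. By role they were 18 actin probes, 16 tubulin probes, 9 muscle probes, 4 probes for other myosins, 8 for actin nucleation and capping, 8 for microtubule motors, 3 for tubulin folding and 6 for spectrin and linker proteins.

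RNA was taken from the testis of Bombyx mori larvae on day 3 of the fifth instar and measured on 1-colour microarrays, with 2 arrays for the op mutant and 2 for the wild type, all on 1 slide. Both genotypes belong to strain o751, and the larvae of both were raised on mulberry leaves. The op mutation is carried by the whole animal, and the lesion was not examined here. The labels do not say whether the samples of a genotype came from separate larvae or from a pool, and the methods state a larger n for the arrays than the 2 samples per genotype used here, so the p-values measure only the spread between these samples.

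Actin polymerizes into filaments that carry myosin motors, and alpha and beta tubulin pair to build microtubules, along which dynein and kinesin move cargo. In muscle, tropomyosin and troponin sit on the actin filament and control its contact with myosin. In the testis, microtubules form the division spindles of the spermatocytes and the axoneme of the sperm tail, and actin serves the division and shaping of the germ cells.

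Actin was also the endogenous reference gene of the study's quantitative RT-PCR. The RNA for that assay came from testis, fat body and brain, with the testis and fat body extracted separately from the array RNA. The actin level on the arrays therefore does not measure the reference in that RNA. The oligos of that actin assay are shown because they were designed for actin, whose array probes are described below. They are written 5′ to 3′ in lower case, with no part in capitals.
actin TaqMan probe: aaggttacgctctgccccacgcc
actin forward primer: ctcccacaccgtacccatct
actin reverse primer: aagtcgcgaccagccaagt
The probe has 23 bases, of which 65.2% are G or C, the forward primer has 20 bases and the reverse primer 19. Which of the actin transcript IDs on the array these oligos would copy was not tested.

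The signal on an array is given on the log2 scale relative to that array's 75th percentile, and is called the normalized log2 signal below, so that 0 is the level of the 75th percentile. The 75th percentile lay between 503.9 and 640.4 intensity units on the 4 arrays, and 67.9% to 72.3% of probes were well above background. No probe was saturated. Genotypes were compared with limma on the 30376 probes whose signal stood well above background throughout 1 genotype or both. Of the 72 cytoskeletal, muscle and motor probes, 70 were tested and 69 were above background on all 4 arrays. The probes left out were the TPM3 probe Ka00906_137, which was above background on 0 of 4 arrays, and the TUBB probe Ka00055_87, which was above it on 1, op replicate 2.

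Across all tested probes 96, or 0.316%, passed an adjusted p of 0.05 in limma, and 0 of the 70 member probes did. At an unadjusted p under 0.05 there were 9 member probes, of which 7 were higher and 2 lower in op, beside 18.7% of all tested probes (10.6% higher and 8.04% lower). The methods' t-test gave 5 at that level, beside 13.9% of all probes it tested, and 0 after adjustment. The median log2 difference, op minus wild type, was 0.04 over the members and 0.03 over all tested probes, and the members ran from -0.56 to 2.55. Both op arrays lay above both wild-type arrays on 20 of the 70 probes and below them on 9, where the shares over all tested probes were 28.8% and 24.9%. On 7 member probes the op arrays were above and the difference exceeded 1, beside 4.9% of all tested probes. With 2 arrays per genotype, exact permutation reaches a two-sided p no lower than 0.333.

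**Figure D1:**
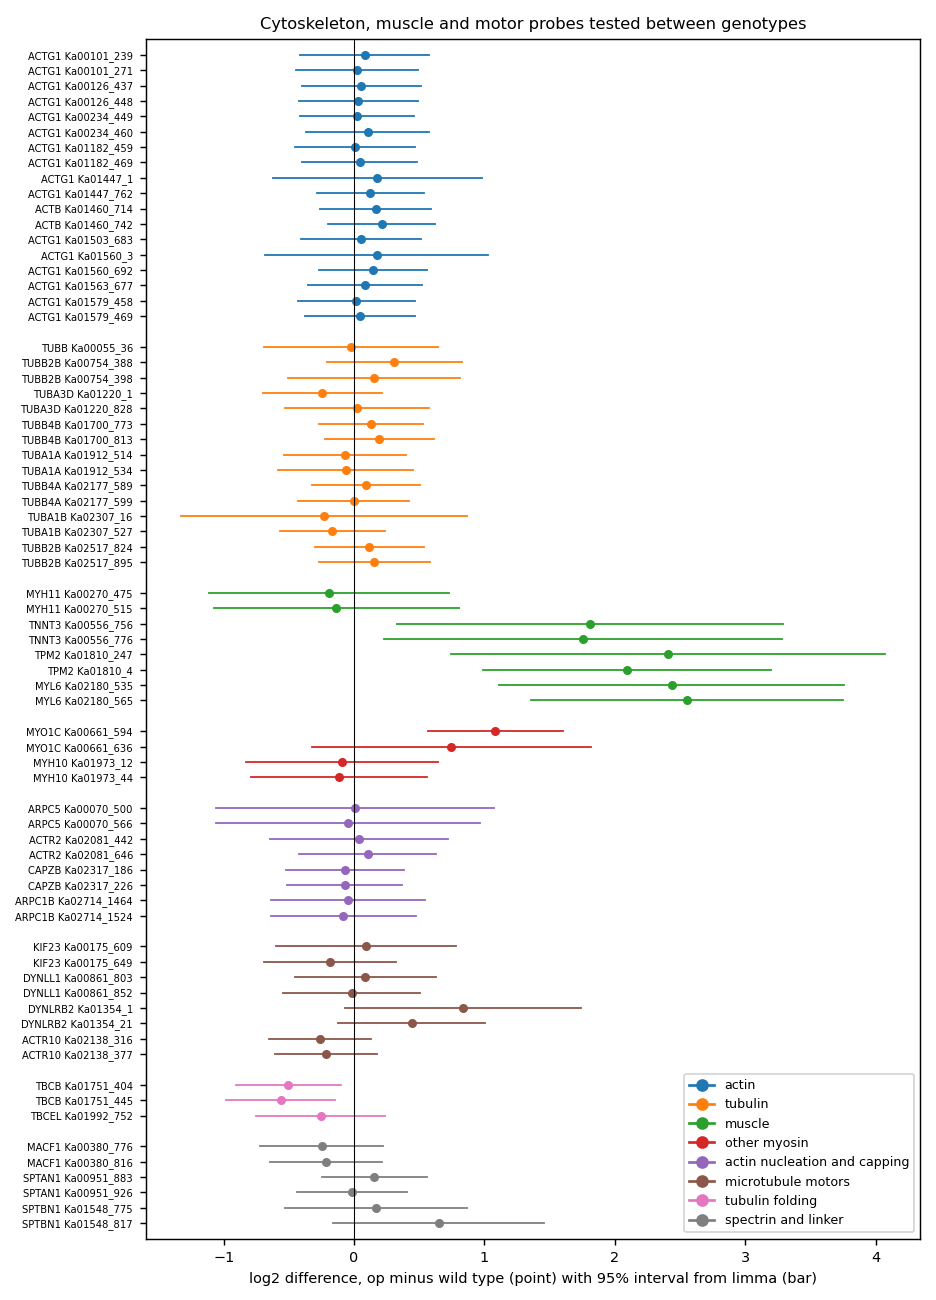
The log2 difference between op and wild type (x axis, points, with the 95% interval from limma as bars) is plotted for each of the 70 tested probes, coloured by list. The 6 probes for TNNT3, TPM2 and MYL6 lie between 1.76 and 2.55, whereas the actin probes lie between 0.01 and 0.21 and the tubulin probes between -0.24 and 0.31.

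The largest differences were on muscle probes. Both probes of each of 3 transcripts of the muscle list, TNNT3, TPM2 and MYL6, had higher signals in op testis, by 1.76 to 2.55 on the log2 scale. None of the 6 passed the adjusted threshold. The muscle list as a whole had a median difference of 1.95 over its 8 tested probes. Of these, 6 were higher in op at an unadjusted p under 0.05 in limma, beside 10.6% of all tested probes. They were both probes of each of TNNT3, TPM2 and MYL6, and are not separate observations.

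TNNT3 encodes troponin T, which in vertebrates ties the troponin complex to tropomyosin in fast skeletal muscle. The normalized log2 signal of TNNT3 Ka00556_756 was 0.91 and 1.27 on the op arrays, with replicate 1 first here and below, compared with -1.51 and 0.07 on the wild-type arrays. Both op arrays were above both wild-type arrays, and the wild-type arrays were further apart than the op arrays. The means were 1.09 ± 0.26 in op and -0.72 ± 1.12 in wild type (SD, n = 2 each), a 3.50-fold difference with a 95% interval of 1.26 to 9.76 and an adjusted p of 0.213 in limma. The second TNNT3 probe, Ka00556_776, had the same order of arrays and a difference of 1.76 (SE 0.58).

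TPM2 encodes a tropomyosin, the coiled-coil protein that lies along the actin filament. TPM2 Ka01810_247 was at -0.63 and -0.06 in op compared with -3.63 and -1.88 in wild type. TPM2 Ka01810_4 was at -3.23 and -2.46 in op compared with -5.38 and -4.50 in wild type. The op arrays were again the 2 highest on both probes, and wild-type replicate 1 was the lowest. The differences were 2.41 (SE 0.63) and 2.09 (SE 0.42), with adjusted p of 0.175 and 0.126 in limma. With normexp background correction the difference on Ka01810_4 was 0.92.

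MYL6 encodes an essential light chain of myosin, found in vertebrates in smooth muscle and also outside muscle. MYL6 Ka02180_565 was at 0.81 and 1.13 in op compared with -2.20 and -0.96 in wild type, and Ka02180_535 was at 1.11 and 1.56 in op compared with -1.79 and -0.42 in wild type. The genotypes did not overlap on either probe. The difference on Ka02180_565 was 2.55 (SE 0.45), or 5.87-fold, and its adjusted p of 0.113 in limma was the lowest among the members.

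MYH11, named after the myosin heavy chain of smooth muscle, did not share this pattern of arrays. The symbols MYH11, TPM3 and MYL6 also name non-muscle homologs, so their IDs may not be muscle genes. On Ka00270_475 op was at -1.42 and -0.49 and wild type at -0.83 and -0.69, and Ka00270_515 was at -2.59 and -1.62 in op compared with -1.99 and -1.94 in wild type. The wild-type arrays fell between the op arrays on both probes, and the differences were -0.19 (SE 0.35) and -0.14 (SE 0.35). Without op replicate 1 these became 0.27 and 0.35. The tropomyosin TPM3 was not well above background on any array, and neither was the probe for the muscle actin-capping protein tropomodulin, TMOD1.

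**Figure D2:**
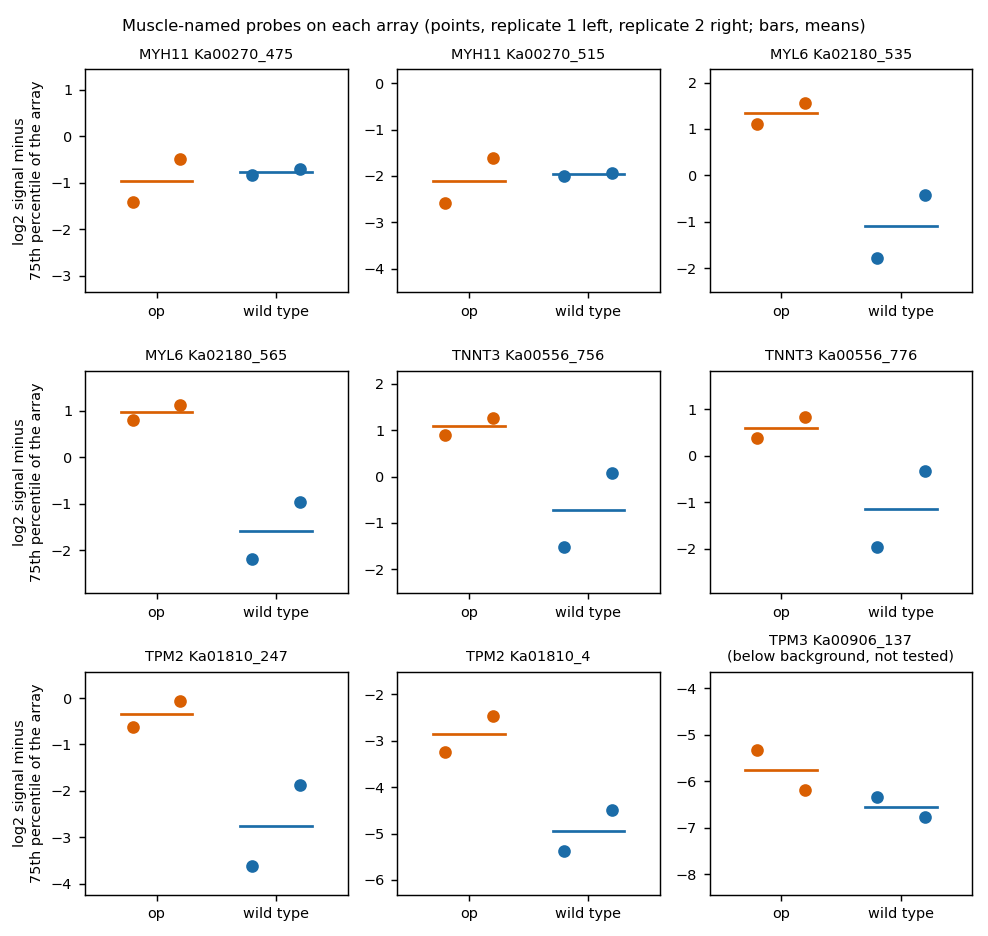
Each panel plots the normalized log2 signal (y axis, with the same span in each panel) of a muscle probe on the 4 arrays, with replicate 1 on the left, replicate 2 on the right and a bar at the mean of each genotype. TNNT3, TPM2 and MYL6 show both op arrays above both wild-type arrays, with wild-type replicate 1 lowest, and on MYH11 op replicate 1 is lowest and op replicate 2 highest.

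The muscle transcripts also differed between arrays of 1 genotype. The signal was higher on replicate 2 than on replicate 1 for 8 of 8 tested muscle probes in wild type and for 8 of 8 in op. This order was not particular to muscle. It held on 17 of 18 actin probes in wild type and 16 of 18 in op, and on 54 and 46 of the 70 tested members. Not all lists shared it. It held on 14 of 15 tubulin probes in wild type but 4 of 15 in op, and on 0 of 4 other myosin probes in wild type and 3 of 4 in op. The wild-type gap exceeded 1 on the log2 scale on 5 muscle probes and on 0 of the other 62 tested member probes, where 1.84% of all tested probes had such a gap. The median muscle difference was 1.28 without wild-type replicate 1 and 2.58 without wild-type replicate 2. Without op replicate 1, TPM2 Ka01810_4 had an adjusted p of 0.047 in limma, but op was then 1 array, its variation was estimated from wild type only, and 7.94% of all tested probes passed.

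Markers of other cell types were read on the same arrays. The summed signal of the 9 muscle probes, in units of the 75th percentile, was 8.42 to 11.5 in op and 2.05 to 4.31 in wild type. Of 7 probes for basement membrane proteins, 6 were above background in both genotypes. Of these, 4 had higher signals in op at an unadjusted p under 0.05, beside 10.6% of all tested probes. None of the 6 passed the adjusted threshold in limma. The median difference of the 6 was 1.16, and the 7 probes had summed levels of 5.20 to 5.54 in op and 4.21 to 4.82 in wild type. Collagen IV (COL4A5 and COL4A6) was higher in op by 0.96 to 1.65, nidogen (NID1 Ka02336_668) by 3.08, and laminin (LAMA4) differed by 0.06 and 0.10. The signal of the basement membrane probes was higher on replicate 2 than on replicate 1 for 6 of 7 in op and for 1 of 7 in wild type. The NID1 probe Ka02336_410 was above background on 0 wild-type arrays.

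The germ line markers PIWIL4, a Piwi protein, and NANOS3, an RNA-binding protein of germ cells, were above background on all 4 arrays with each of their 4 probes. Their summed level was 4.69 to 4.76 in op and 5.65 to 5.85 in wild type, with a median difference of -0.19 and 0 probes past an unadjusted p of 0.05. The 2 genes differed in this. PIWIL4 was lower on both op arrays, by -0.35 and -0.29 on its probes, while NANOS3 differed by -0.09 and 0.01 and the genotypes overlapped. For digestive enzymes of the gut, 10 probes were above background on at least 1 array of each genotype, and 6 on all 4 arrays. Of the 10, 3 were higher and 2 lower in op at an unadjusted p under 0.05 in limma, beside 10.6% and 8.04% of all tested probes. The 2 lower probes, both of CPB1, were above background on only 1 op array. The higher CELA2A probe Ka01436_754 was above it on only 1 wild-type array. These CPB1 and CELA2A probes were tested only through the genotype where they are high, so they give no support for a difference. The median difference of the 10 was -0.11. The whole list had a summed level of 2.25 to 2.33 in op and 2.45 to 2.72 in wild type. The part of these cell types in the muscle result was not tested. In a bulk sample, a different number of cells of a type and a different amount of RNA per cell cannot be told apart.

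Actin signals were close between the genotypes. All 18 actin probes had a positive log2 difference, from 0.01 to 0.21 with a median of 0.07, beside 0.03 over all tested probes. After quantile normalization 8 of 18 were positive (median -0.01, and -0.03 over all tested probes). After a shift to the array median 7 of 18 were positive (-0.03, and -0.06 over all tested probes). No actin probe had an unadjusted p under 0.05, and both op arrays were above both wild-type arrays on 4. The largest difference was on the ID named ACTB, where Ka01460_742 was at 6.45 and 6.48 in op compared with 6.18 and 6.33 in wild type. Its difference was 0.21 (SE 0.15), a 1.16-fold higher signal in op.

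The other actin probes carry the symbol ACTG1, a cytoplasmic actin of vertebrates. Whether the actin IDs are muscle or cytoplasmic actins of the silkworm was not tested. The 8 probes of the IDs Ka00126, Ka00234, Ka01182 and Ka01579 had normalized log2 signals from 4.29 to 4.74 on the 4 arrays, and the genotypes overlapped on each of the 8. The probe sequences were not examined. Whether these IDs are separate actin genes, and how much of each signal comes from another actin gene, is uncertain. The interval around the differences ran from a 0.624-fold to a 2.04-fold op level over the list, and its widest ends belong to Ka01560_3. With each array's mean actin signal as the reference, the median muscle difference was 1.86.

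**Figure D3:**
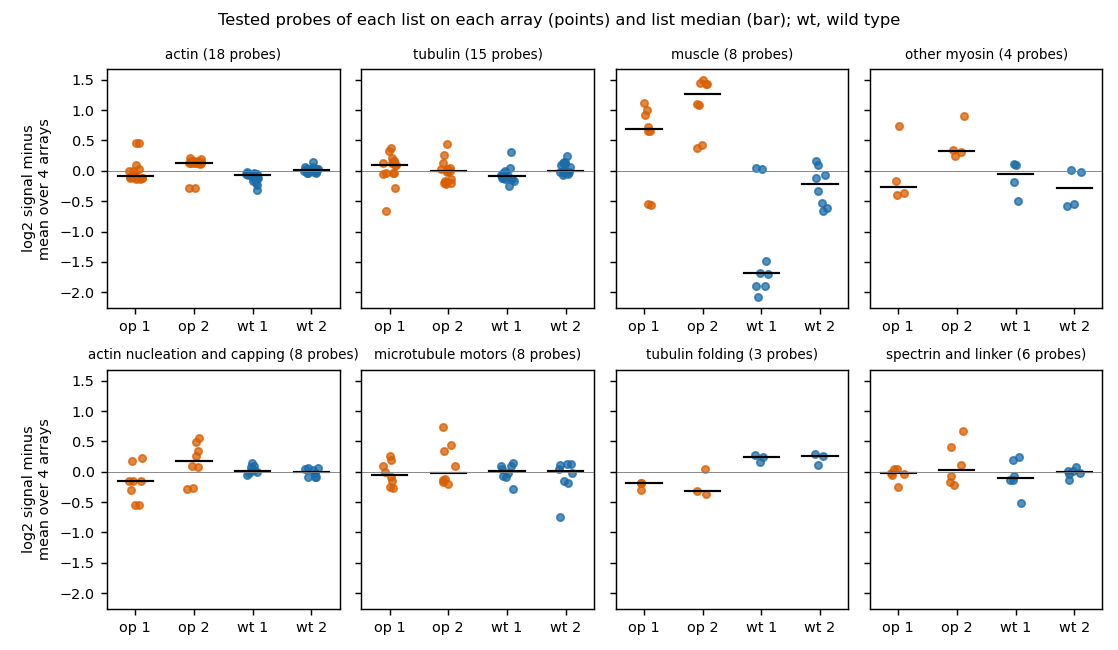
Each point is a tested probe on an array, plotted as its normalized log2 signal minus its mean over the 4 arrays (y axis), with op in orange, wild type in blue and the list median as a bar. The muscle list spreads over the widest range, with wild-type replicate 1 lowest on 6 probes, and the 3 tubulin folding probes are lower on both op arrays than on both wild-type arrays.

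Tubulin signals also lay close together. Of 15 tested probes 8 had a positive and 7 a negative difference, with a median of 0.02, and 0 had an unadjusted p under 0.05. The beta tubulins (TUBB, TUBB2B, TUBB4A and TUBB4B) had a median of 0.13 and the alpha tubulins (TUBA1A, TUBA1B and TUBA3D) a median of -0.12, and the difference between these medians was not tested.

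TUBA3D Ka01220_828, an alpha tubulin probe, was at 7.78 and 7.37 in op compared with 7.47 and 7.63 in wild type, and the genotypes overlapped. Its difference of 0.02 (SE 0.21) was negative in 5 alternatives of the processing. On the other TUBA3D probe, Ka01220_1, op was at 4.47 and 4.32 and wild type at 4.52 and 4.76, so that both op arrays were lower. TUBA1B Ka02307_16 had op arrays 1.11 apart, at -1.18 and -0.08, on either side of the wild-type values of -0.21 and -0.58. Its difference of -0.23 became 0.32 without op replicate 1.

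Tubulin needs dedicated cofactors to fold and pair. The 2 probes for TBCB, cofactor B, which binds alpha tubulin after its release from the chaperonin, had the most negative differences of all members. Ka01751_445 was at 0.77 and 0.60 in op compared with 1.23 and 1.26 in wild type, and Ka01751_404 was at -0.50 and -0.62 in op compared with -0.06 and -0.04 in wild type. The genotypes were apart on both probes by more than the gap between replicates. The differences were -0.56 (SE 0.16) and -0.51 (SE 0.15), with adjusted p of 0.192 and 0.206 in limma. TBCEL, a relative of cofactor E that destabilizes tubulin in human cells, differed by -0.26 (SE 0.19), again with both op arrays below both wild-type arrays. These 3 probes kept a negative difference in each alternative.

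Among the microtubule motors, the dynein light chain of the roadblock type, DYNLRB2, had the largest difference. Its probe Ka01354_1 was at -5.34 and -4.70 in op compared with -5.52 and -6.19 in wild type, close to the background. It was above background on both op arrays but on only 1 wild-type array, so it was tested only through op, where it is high. The difference was 0.84 (SE 0.34), and 0.20 with normexp background correction. On the second DYNLRB2 probe it was 0.44 (SE 0.21). ACTR10, a subunit of the dynactin complex that links dynein to its cargo, was at -1.51 and -1.48 in op compared with -1.21 and -1.25 in wild type on Ka02138_316. Both probes of ACTR10 were lower in both op arrays, by 0.26 (SE 0.15) and 0.22 (SE 0.15). The genotypes overlapped on the probes for KIF23, a kinesin of the division midzone, and for the dynein light chain DYNLL1, with differences from -0.18 to 0.09.

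MYO1C, a class I myosin that tethers membranes to actin, was the single member outside the muscle list with a difference over 1. MYO1C Ka00661_594 was at -3.27 and -3.66 in op compared with -4.51 and -4.59 in wild type, with no overlap. The difference was 1.08 (SE 0.20), or 2.12-fold, with an adjusted p of 0.114 in limma, and with normexp it was 0.41 (adjusted p = 0.277). On Ka00661_636 it was 0.75 (SE 0.40), and the op arrays were 1.07 apart. In limma Ka00661_594 had an adjusted p of 0.046 without op replicate 1, 0.028 without op replicate 2, 0.484 without wild-type replicate 1 and 0.611 without wild-type replicate 2, and Ka00661_636 one of 0.047 without op replicate 1. With op as a single array, the variation was estimated from wild type only, and 7.94% and 7.79% of all tested probes passed. The heavy chain MYH10, a non-muscle myosin, differed by -0.09 and -0.12.

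The genes that nucleate and cap actin filaments showed no separation. These were ARPC1B and ARPC5, subunits of the Arp2/3 complex, ACTR2, its actin-related subunit, and CAPZB, which caps filament ends. The genotypes overlapped on 8 of 8 probes, and the differences lay between -0.08 and 0.10. For ARPC5 the op arrays were 1.11 and 1.04 apart, with the wild-type arrays between them. Spectrin and linker genes had a median of 0.07. MACF1, which links microtubules to actin, was lower in both op arrays by 0.25 (SE 0.18) and 0.22 (SE 0.16). The beta spectrin probe SPTBN1 Ka01548_817 was higher by 0.65 (SE 0.30), and the other SPTBN1 probe by 0.17 (SE 0.26).

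Probes of the same transcript ID gave like differences. Of 33 IDs with 2 tested probes, 27 had the same sign on both, and the difference between the probes had a median of 0.06 and a maximum of 0.48, for SPTBN1. The number that ends a probe name differed by under 60 within 23 of these pairs, so these probes may read overlapping stretches and are not independent. The replicate arrays were further apart in op than in wild type, with a median absolute gap of 0.32 against 0.12 over the members and 0.30 against 0.14 over all tested probes. The op arrays were over 1 apart on 4 member probes, beside 7.35% of all tested probes.

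**Figure D4:**
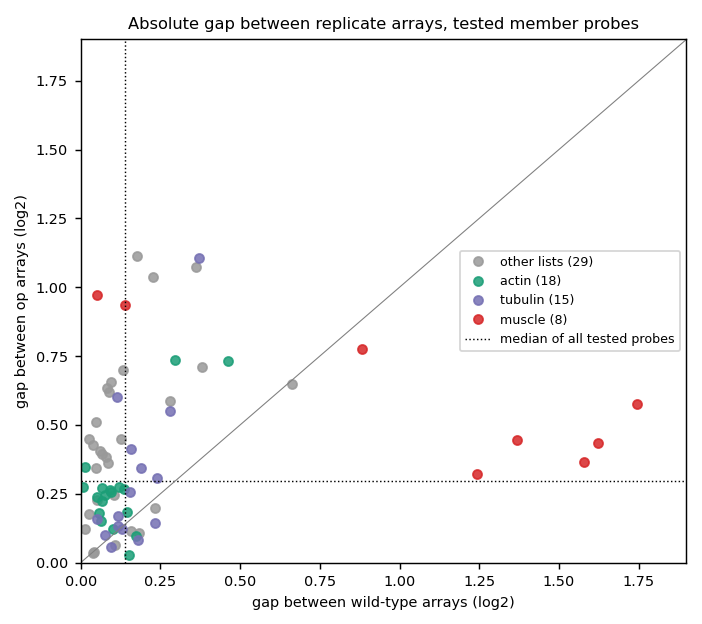
The absolute gap between the replicate arrays in wild type (x axis) is plotted against that in op (y axis), both on the log2 scale, for the 70 tested member probes. The grey diagonal marks equal gaps and the dotted lines the medians of all tested probes, 0.14 and 0.30. The muscle probes other than MYH11 stand to the right, and most other probes lie above the diagonal.

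Other genes of the cytoskeleton, which the rule did not take, were counted in the same way. Of 48 probes 46 were tested, all but those of TMOD1 and calponin 2 (CNN2), and 0 passed the adjusted threshold in limma. Leaving aside a CNN3 probe above background in op alone, 6 of 45 had an unadjusted p under 0.05, with 4 higher and 2 lower in op. The share over all tested probes was 18.7% (10.6% higher and 8.04% lower). All 6 were among the actin-binding genes. Gelsolin (GSN), which severs and caps actin filaments, was higher in op on 4 of 4 probes, by 0.65 to 2.73. GSN Ka02661_494 was at 4.78 and 4.74 in op compared with 3.11 and 3.24 in wild type, and its difference of 1.59 (SE 0.15) had an adjusted p of 0.060. Both op arrays were above both wild-type arrays there, with little spread within either genotype. GSN Ka02661_1296 was at 2.45 and 0.10 in op compared with -1.54 and -1.37 in wild type, a wide spread in op. Of the 45 probes above background in both genotypes, 2 passed the adjusted threshold in limma without op replicate 1 and 4 without op replicate 2, with the spread again from wild type alone and beside 7.94% and 7.79% of all tested probes.

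Calponin 3 (CNN3), an actin-binding protein known from smooth muscle and other cells of vertebrates, was well above background on both op arrays and on 0 wild-type arrays with Ka00557_50. It was at least 1.89-fold higher in op, a bound set by the lowest signal well above background on each wild-type array, and the adjusted p of 0.054 in limma rests on wild-type values that are background. Its second probe, Ka00557_529, was at -1.63 and -2.01 in op compared with -4.33 and -2.90 in wild type. The genotypes did not overlap there, and wild-type replicate 1 was lowest, as for the muscle probes. CAP2, a cyclase-associated protein that recycles actin monomers, was lower in op by 0.47 (SE 0.16) and 0.45 (SE 0.16), with an adjusted p of 0.237 and 0.246 in limma. Coactosin (COTL1) was lower in both op arrays by 0.50 (SE 0.24) and 0.44 (SE 0.24), and moesin (MSN) differed by 0.02 and -0.13.

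The other lists lay near 0. The 13 probes for other microtubule and cilium genes had a median of 0.05, and the largest difference among them was -0.59 (SE 0.35) for IFT52, a carrier protein of the cilium. The 21 probes for the chaperonin CCT and the prefoldins, which fold actin and tubulin, had a median of -0.04. Prefoldin 1 (PFDN1) was lower in both op arrays on both probes, by 0.37 (SE 0.15) on each.

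**Figure D5:**
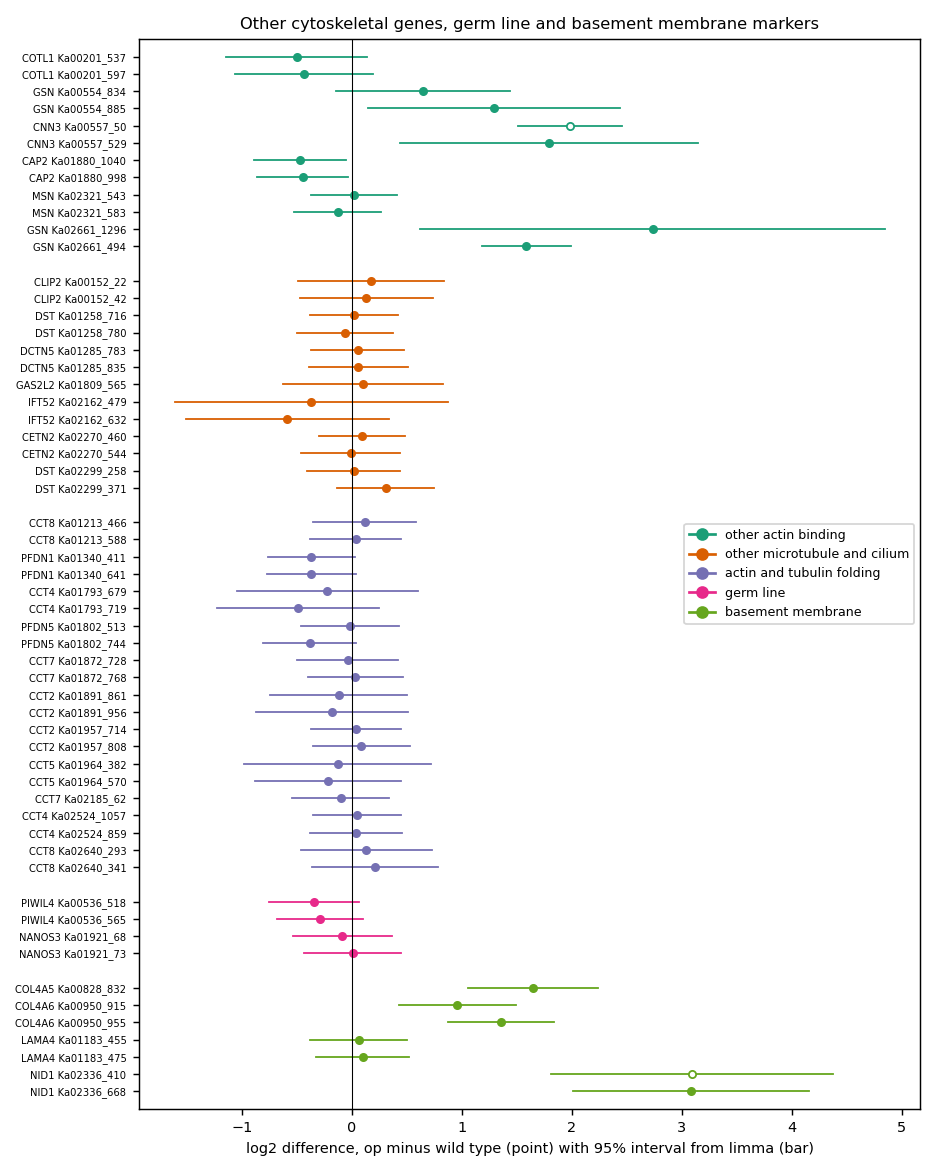
The log2 difference between op and wild type (x axis, points, with the 95% interval from limma as bars) is plotted for the other cytoskeletal genes and for the germ line and basement membrane markers. Open circles are probes with 0 wild-type arrays well above background, for which the difference is no measured fold. GSN, CNN3, the collagens and NID1 lie to the right of 0, and most other probes have intervals that cross 0.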

How the data were processed

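Testis RNA of op and wild-type larvae was labelled with Cy3 and hybridized to 1-colour arrays, 2 per genotype. The authors read the spots with Agilent Feature Extraction 9.5, and the deposited intensity values are background-subtracted signals with flags. The authors also deposited normalized log2 values, which their values show to be scaled to the array's 75th percentile and centred on each probe. These served as an alternative.

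From the intensities, log2 signals were computed relative to the 75th percentile of their array, without control spots. Spots flagged as non-uniformity outliers were then left out, and the population outlier flag was not used. The op minus wild-type contrast was fitted in R 4.3.3 with limma 3.58.1 (lmFit, then eBayes). P-values were two-sided and were adjusted by the Benjamini-Hochberg method across the 30376 tested probes, with a threshold of 0.05. A probe was tested if both op arrays, or both wild-type arrays, were well above background. The test was checked on simulated data.

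Probe names came from 1999 rows of the study's homology table, and another 10982 rows were not used here. Genes were named by list, with the 10 largest differences in each direction. One list of related genes is not reported here. The members and lists were chosen with earlier results of these data known. Alternatives were normexp background correction (offset 50, on median signals), quantile normalization, a shift to the array median, the deposited values, other filters, a trend and robust fit, the replicate number as a block, the methods' t-test and leaving out each array. The number of arrays limits the precision.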

Additional observations from a re-analysis of the deposited data

How the results depend on the processing

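The count of member probes past the adjusted threshold was 0, and became 1 with normexp background correction (MYL6 Ka02180_565) and 4 with the replicate block (both probes of TPM2 and of MYL6). The muscle count was also 1 and 4 under these settings. Leaving out each array in turn gave 0 to 3 member probes and 0 to 1 muscle probes. For the related cytoskeletal genes the count of 0 became 1 with normexp, 1 with the trend and robust fit and 2 with the replicate block, and was 0 to 5 with an array left out. With an array left out, the lone array was assumed to vary like the other genotype. These settings also moved the count over all tested probes, from 96 to 414 with normexp, 464 with the trend and robust fit, 715 with the block, 15 with quantile normalization, and 33 to 2413 with an array left out. The labels' replicate numbers were not taken to pair the samples, since same-numbered arrays deviated with a correlation of -0.030 across probes. The cause of these moves was not tested.

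The median over all members was -0.026 after quantile normalization and -0.050 after a shift to the array median. Over all tested probes it was -0.032 and -0.063 under these settings. The member median ran from -0.038 to 0.17 with an array left out. The muscle median ran from 1.28 to 2.58 with an array left out, and was 1.58 with normexp. The muscle median relative to actin, 1.86, was chosen after seeing the data. The median wild-type gap was 0.074 after quantile normalization. The difference of TUBA3D Ka01220_828 turned to -0.00027 with normexp, -0.089 with quantile normalization and -0.071 with the array median, and ran from -0.18 to 0.23 with an array left out. With an array left out TUBA1B Ka02307_16 ran from -0.78 to 0.32, MYH11 Ka00270_475 from -0.66 to 0.27, MYH11 Ka00270_515 from -0.62 to 0.35 and TUBA1A Ka01912_514 from -0.20 to 0.055. The differences of the TNNT3, TPM2, MYL6 and TBCB probes kept their sign in each of the 14 alternatives.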
